A study of Homo sapiens with 4 samples.

Results

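TBL1X, a WD40-repeat protein of nuclear corepressor complexes, was examined together with its paralogue TBL1XR1, the corepressor scaffolds NCOR1, SIN3A and RCOR1, the subunit GPS2 and the deacetylases HDAC1, HDAC2 and HDAC3 in liver cancer cells given a miR-4730 mimic. These 9 genes were listed by symbol, and each was represented by its brightest probe set over 4 arrays. Of the 9, 8 had a named probe set, 1 each, out of 17687 named genes in all, and NCOR1 was not analysed here. All 8 passed the filter on low values that left 12381 genes. TBL1X was chosen by its mimic minus control values on these arrays and the others as its paralogue and complex partners with those values known, so the mimic response of the 8 genes is given as a description without a test.

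The groups were HEP-G2 cells with the miR-4730 mimic, HEP-G2 cells with a negative control oligonucleotide, Li-7 cells with the mimic and Li-7 cells with the negative control, with 1 Affymetrix array each and no replicate array. The mimic, a synthetic double-stranded RNA that supplies the mature microRNA, was transfected once at 3 nM, 24 h after seeding. The sources used here do not give the concentration of the control or the time between transfection and harvest. HEP-G2 and Li-7 are established human liver cancer lines that were grown in different media, so line and medium cannot be told apart.

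Nuclear corepressor complexes hold genes silent by bringing histone deacetylases to DNA-bound factors such as unliganded nuclear receptors. In the complexes built on NCOR1, the scaffold carries and activates HDAC3, and TBL1X, TBL1XR1 and GPS2 bind the scaffold's repression domain. TBL1X and TBL1XR1 are also known to act in the exchange of corepressors for coactivators, to bind beta-catenin, and in mouse liver to take part in the control of fatty acid oxidation. SIN3A and RCOR1 are scaffolds of separate complexes that use HDAC1 and HDAC2, and the RCOR1 complex also carries the lysine demethylase KDM1A.

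The mature sequence of the microRNA is shown because it is the agent whose delivery separates mimic from control arrays. Capitals mark the seed, bases 2 to 8, through which a microRNA pairs with target transcripts. The sequence is that of RefSeq (GRCh38.p14, chr17:80419427-80419449, plus strand), 23 bases long.
hsa-miR-4730: cUGGCGGAgcccauuccaugcca
Of 2370 mature human microRNA names in the same table, 1 carried this seed, miR-4730 itself. Matches of the seed to the transcripts of the 9 genes were not analysed here.

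Array medians lay between 7.03 and 7.17 on the deposited log2 scale, and between 6494 and 7557 named genes exceeded the detection level, taken on each array as the 95th percentile over its 612 negative control probe sets. It was 8.20 for HEP-G2 with the mimic, 8.35 for HEP-G2 with the control, 7.99 for Li-7 with the mimic and 8.72 for Li-7 with the control. Of 9 hepatocyte markers with a probe set, all 9 exceeded it on both HEP-G2 arrays, while on the Li-7 arrays 1 did with the mimic and 0 with the control, and ALB, AFP, TTR and the apolipoprotein genes APOA1, APOA2 and APOB were under it on both Li-7 arrays. Of 8 markers of blood, endothelial and stromal cells, 3 lay above it on each array. CD68 and COL1A2 did so on all 4 arrays, ACTA2 on both HEP-G2 arrays and LUM on both Li-7 arrays. PTPRC, PECAM1, VWF and COL1A1 lay above it on none.

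TBL1X was lower with the mimic in both lines. It stood at 7.64 with the mimic and 10.53 with the control in HEP-G2, and at 7.92 with the mimic and 10.50 with the control in Li-7. The mimic arrays thus lay under both control arrays, and the control values of the lines were nearly equal. The difference was -2.89 in HEP-G2, a 7.40-fold reduction, and -2.59 in Li-7, a 6.01-fold reduction. The mean of -2.74 had an SD of 0.21 over the 2 lines, which are not replicate cultures.

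Both control values of TBL1X lay above the detection level and both mimic values under it. With the detection level of the mimic array in place of the mimic value, the reduction of TBL1X was about 5.00-fold in HEP-G2 and 5.70-fold in Li-7. These folds rest on single arrays, and the detection level of the Li-7 control array was higher, at 8.72. Negative control probe sets differed between mimic and control arrays with an SD of 1.51 in HEP-G2 and 1.20 in Li-7, around medians of -0.12 and 0.0029. The Y-linked gene TBL1Y, a close copy, has a probe set of its own, and binding of its transcripts to the TBL1X probes was not tested.

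**Figure D1:**
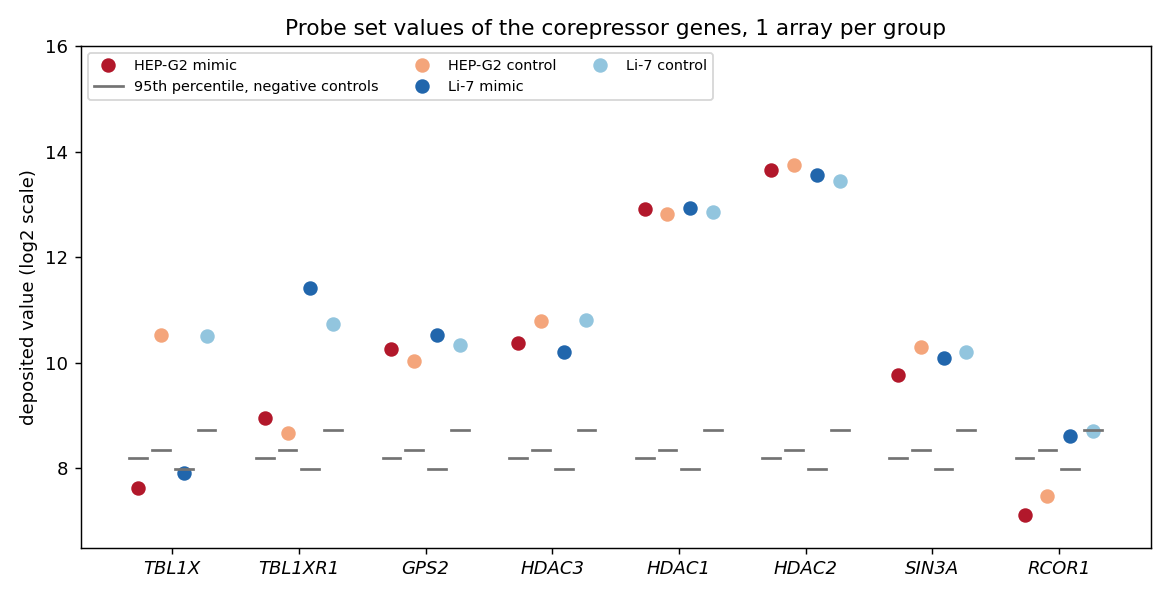
Deposited log2 values of the 8 corepressor genes (vertical axis) on the 4 arrays, with 1 point per array and grey bars at the detection level of that array (95th percentile, negative controls). TBL1X lies below the bars on both mimic arrays (7.64 and 7.92), while TBL1XR1 separated the lines, at 8.96 and 8.68 in HEP-G2 against 11.42 and 10.74 in Li-7.

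TBL1XR1, the autosomal paralogue that occupies the same complexes, did not share this response. Its values were 8.96 with the mimic and 8.68 with the control in HEP-G2, and 11.42 with the mimic and 10.74 with the control in Li-7. It was the higher with the mimic in each line, by 0.28 in HEP-G2 and 0.68 in Li-7, differences of single arrays of 1.22-fold and 1.60-fold. The response of TBL1X minus that of TBL1XR1 was -3.17 in HEP-G2 and -3.26 in Li-7, with a mean of -3.22 (SD 0.065, 2 lines).

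Among the partners of TBL1X in the NCOR1 complex, GPS2, a small subunit that contacts both NCOR1 and TBL1X, stood at 10.26 with the mimic and 10.04 with the control in HEP-G2, and at 10.53 with the mimic and 10.34 with the control in Li-7. Its differences were 0.22 in HEP-G2 and 0.18 in Li-7. HDAC3, the deacetylase of this complex, stood at 10.37 with the mimic and 10.79 with the control in HEP-G2, and at 10.20 with the mimic and 10.81 with the control in Li-7. HDAC3 was therefore the next lowest of the genes by mean response, at -0.41 in HEP-G2 and -0.61 in Li-7. Its 4 values all lay above the detection level, and the response of TBL1X minus that of HDAC3 was -2.47 in HEP-G2 and -1.98 in Li-7.

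The deacetylases shared by the SIN3 and CoREST complexes were the steadiest of the set. HDAC1 stayed within 0.12 over all 4 arrays, at 12.92 with the mimic and 12.82 with the control in HEP-G2 and at 12.94 with the mimic and 12.85 with the control in Li-7. HDAC2, its close relative, stood at 13.65 with the mimic and 13.75 with the control in HEP-G2, and at 13.55 with the mimic and 13.45 with the control in Li-7. Its differences, -0.10 and 0.10, had opposite signs, and its 4 values spanned 0.31.

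The scaffolds showed small differences. SIN3A stood at 9.78 with the mimic and 10.29 with the control in HEP-G2, a difference of -0.52, and at 10.09 with the mimic and 10.20 with the control in Li-7, a difference of -0.11. RCOR1, also called CoREST1, stood at 7.12 with the mimic and 7.48 with the control in HEP-G2, and at 8.62 with the mimic and 8.70 with the control in Li-7. Its differences were -0.36 in HEP-G2 and -0.08 in Li-7. Since only the Li-7 mimic value of RCOR1 lay above the detection level of its array, the size of its differences is uncertain.

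TBL1X alone of the 8 genes was at least 2-fold lower with the mimic in both lines, where 1.76% of all genes tested were (6.28% in HEP-G2 and 4.12% in Li-7 taken singly), and 0 of the 8 were at least 2-fold higher, against 5.77% of all genes in HEP-G2 and 3.72% in Li-7. The TBL1X response helped to choose these genes, so nothing is read from that count. The other 7 ranged from -0.52 to 0.28 in HEP-G2 and from -0.61 to 0.68 in Li-7. TBL1X, HDAC3, SIN3A and RCOR1, 4 of 8, were lower in both lines, beside 31.0% of all genes, and 3 of 8 (TBL1XR1, GPS2 and HDAC1) were higher in both, beside 34.1%. The median response of the 8 genes in HEP-G2 was -0.23 and that of all genes tested 0.018, while in Li-7 they were 0.00060 and 0.021.

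**Figure D2:**
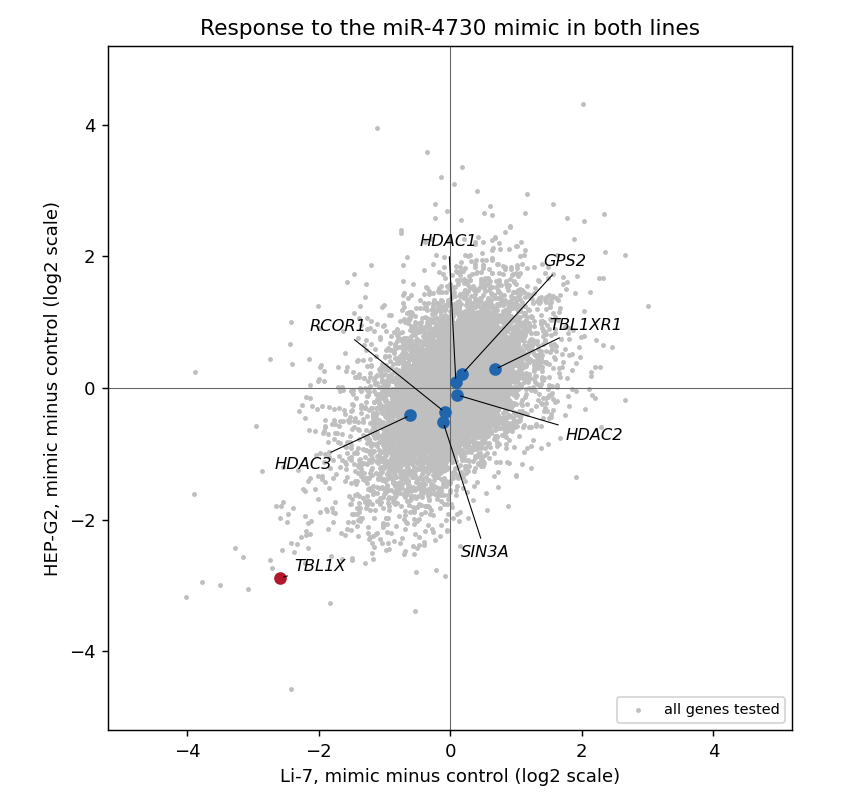
Mimic minus control in HEP-G2 (vertical axis) against Li-7 (horizontal axis), both on the log2 scale, for 12381 genes (grey), TBL1X (red) and the other 7 corepressor genes (blue). TBL1X lies at the lower left edge (-2.89 and -2.59), and the other 7 lie in the central cloud, within 0.52 of 0 in HEP-G2 and within 0.68 in Li-7.

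The genes whose pattern was nearest to TBL1X were taken by Euclidean distance over the 4 arrays, each gene centred on its own mean. They were POM121 (distance 0.31), a nuclear pore membrane protein, TEAD4 (0.33), a DNA-binding partner of YAP, AATF (0.36), a nuclear protein that antagonises apoptosis, HCFC1 (0.41), a chromatin-bound coregulator known to associate with SIN3 and histone methyltransferase complexes, and POM121C (0.55), a near-identical copy of POM121. HCFC1 stood at 8.79 with the mimic and 11.15 with the control in HEP-G2, and at 8.78 with the mimic and 11.21 with the control in Li-7. AATF stood at 10.13 with the mimic and 12.62 with the control in HEP-G2, and at 10.16 with the mimic and 12.54 with the control in Li-7. Both genes, like POM121 and POM121C, lay above the detection level on all 4 arrays, while TEAD4 did so on 1 and TBL1X on 2, so these distances rest in part on values under it. The nearest of the other corepressor genes was HDAC3, at a distance of 2.25, with 998 genes nearer.

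The difference between the lines is a separate contrast from the mimic response that chose TBL1X, and it was tested. The genes were nevertheless listed with earlier results of these data known. TBL1XR1 averaged 8.82 in HEP-G2 and 11.08 in Li-7, 4.79-fold lower in HEP-G2 (difference -2.26, SE 0.25, adjusted p = 0.000439 by limma with Benjamini-Hochberg adjustment). The gap was present on the mimic arrays (-2.46) and on the control arrays (-2.06), and all 4 values lay above the detection level. RCOR1 averaged 7.30 in HEP-G2 and 8.66 in Li-7 and was also lower in HEP-G2 (difference -1.36, SE 0.25, adjusted p = 0.00427 by limma). Its HEP-G2 values and its Li-7 control value (8.70) lay under the detection level, so the size of this difference is uncertain. These 2 of 8 genes, both lower in HEP-G2, stand beside 44.9% of all genes that passed in either direction, 24.3% lower and 20.7% higher in HEP-G2. At an unadjusted p under 0.05 the same 2 of 8 stand beside 52.5% of all genes.

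TBL1X averaged 9.08 in HEP-G2 and 9.21 in Li-7, a difference of -0.13 (SE 0.25, adjusted p = 0.708 by limma). The TBL1X difference was 0.02 between the control arrays and -0.28 between the mimic arrays, where both values lay under the detection level. For GPS2 the difference was -0.28, for SIN3A -0.11, for HDAC1 -0.03, for HDAC3 0.08 and for HDAC2 0.20, with SEs between 0.24 and 0.26 and adjusted p from 0.381 to 0.938 in the limma fit. Differences about the size of these SEs were not detectable here. The test has 1 residual degree of freedom per gene, and its p-values measure the disagreement between treatments, not the spread of replicate cultures. Without moderation of the variance, as an ordinary t statistic, neither call was made (adjusted p = 0.253 for TBL1XR1 and 0.259 for RCOR1), and 1 of all genes passed.

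**Figure D3:**
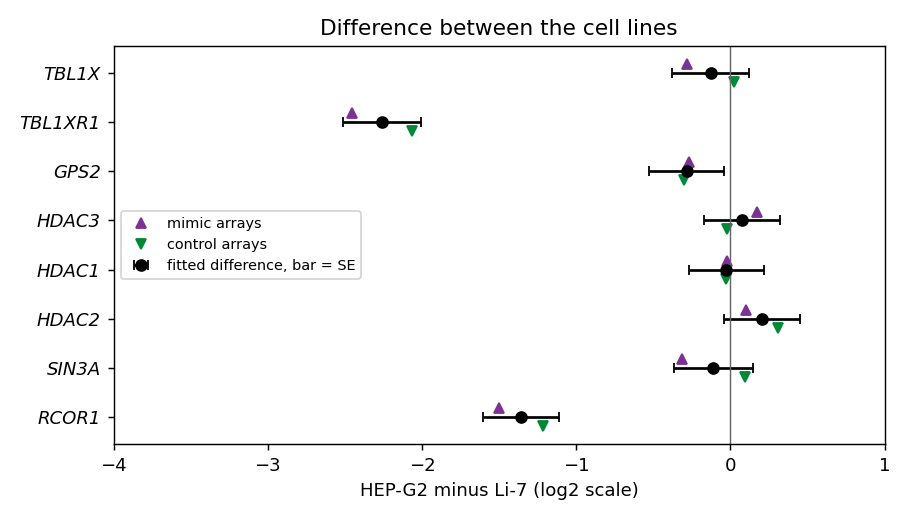
HEP-G2 minus Li-7 (horizontal axis, log2 scale) for the 8 corepressor genes, as the fitted difference with its SE (black) and as the differences between the mimic arrays (upward triangles) and between the control arrays (downward triangles). TBL1XR1 (-2.26) and RCOR1 (-1.36) lie well below 0, and the other 6 lie between -0.28 and 0.20.

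A wider set of 153 genes in 12 lists covered other subunits, recruiting factors, coactivators and genes known to be controlled through these complexes. Of them, 137 had a named probe set and 115 were tested for a mimic response common to both lines with limma. With 1 array per group, the SEs and p-values of this test measure the disagreement between the lines, not the spread of replicate cultures. SAP18 fell and none rose (1 of 115, 0.870%), beside 0.420% of all genes tested (42 lower, 0.339%, and 10 higher, 0.0808%). At an unadjusted p under 0.05 there were 19 of 115 (16.5%), beside 19.5% of all genes. The median response of the set was 0.034 and that of all genes 0.025.

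SAP18, a small subunit of the SIN3 deacetylase complex that is also found in a splicing-linked complex, was the gene that fell. It stood at 11.11 with the mimic and 13.05 with the control in HEP-G2, and at 10.34 with the mimic and 12.55 with the control in Li-7. All 4 values lay above the detection level, and both mimic values lay under both control values. The differences were -1.94 and -2.21, and the mean of -2.08 (SE 0.25) had an adjusted p = 0.0348 in limma after Benjamini-Hochberg adjustment, with adjusted p from 0.00372 to 1.00 over 11 alternatives. The call was lost after cyclic loess (adjusted p = 0.0655), without moderation of the variance (adjusted p = 0.621) and without cell line in the model (adjusted p = 1.00).

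The rest of the SIN3 list was mixed. Of its 15 tested members, 1 fell and 0 rose, beside 0.420% of all genes that passed in either direction. At an unadjusted p under 0.05 in limma there were 4, beside 19.5% of all genes. In both lines 6 were lower and 4 higher, beside 31.0% and 34.1% of all genes, and the median was -0.13. SAP130, a further SIN3-associated protein, stood at -0.88 in HEP-G2 and -0.94 in Li-7 (adjusted p = 0.127 by limma). SINHCAF, also of this complex, stood at -1.12 and -0.33 in the same order, and SAP30, which bridges SIN3 and the deacetylases, at -1.19 and -0.16. The HEP-G2 mimic value of SAP30 lay under the detection level. SIN3B, the relative of SIN3A, did not pass the filter on low values.

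In the NCOR list, 0 of 4 tested partners passed in limma (0 at an unadjusted p under 0.05), and the median was -0.06. CORO2A, a coronin found in NCOR complexes, stood at 0.55 in HEP-G2 and 0.17 in Li-7, where both values lay under the detection level. ZBTB33, also called Kaiso, a methyl-CpG binding factor that recruits NCOR1, stood at -0.30 in HEP-G2 and -0.16 in Li-7.

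In the CoREST list, 0 of 10 passed in limma (1 at an unadjusted p under 0.05), with a median of 0.08. RCOR3, a relative of RCOR1, stood at 0.51 in HEP-G2 and 1.09 in Li-7, under the detection level on all 4 arrays. In the list of NuRD and MiDAC complexes, other users of HDAC1 and HDAC2, 0 of 12 passed (1 at an unadjusted p under 0.05), with a median of 0.03. MTA1, a NuRD subunit, had the largest mean difference there. It stood at 7.73 with the mimic and 9.47 with the control in HEP-G2, and at 9.90 with the mimic and 10.85 with the control in Li-7 (mean -1.35, SE 0.29, adjusted p = 0.0907 by limma). Its HEP-G2 mimic value lay under the detection level, and MTA1 passed under 4 of 11 alternatives.

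Of the other zinc-dependent deacetylases, 0 of 7 passed (0 at an unadjusted p under 0.05 in limma), and the median was -0.18. HDAC5 (-0.38 in HEP-G2 and -0.56 in Li-7) and HDAC4 (-0.34 and -0.33), class IIa enzymes that bind NCOR complexes, had the largest mean differences. Only the HEP-G2 control value of HDAC5 exceeded the detection level, and the Li-7 control value of HDAC4 lay under it. Of the tested genes of the Groucho/TLE family, 0 of 4 passed in limma (0 at an unadjusted p under 0.05). The median was 0.22, with TLE5 at 0.29 in HEP-G2 and 0.31 in Li-7.

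Among the factors that recruit NCOR1, 0 of 15 passed in limma (4 at an unadjusted p under 0.05), and the median was 0.17. PPARD, a fatty acid receptor, stood at -0.48 in HEP-G2 and -1.54 in Li-7, and only its HEP-G2 control value exceeded the detection level. NR0B2, a bile acid-induced corepressor of nuclear receptors, stood at 1.26 in HEP-G2 and 0.62 in Li-7, with its Li-7 control value under that level. Of 9 coactivators, 0 passed (2 at an unadjusted p under 0.05), with a median of -0.15. KAT2B, a histone acetyltransferase, stood at 1.17 in HEP-G2, where both values lay under the detection level, and at 1.03 in Li-7 (adjusted p = 0.0986 by limma). CARM1, an arginine methyltransferase, stood at -1.32 in HEP-G2 and -0.73 in Li-7 (adjusted p = 0.125 by limma).

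Genes known to be controlled through these complexes were read last. Of 13 tested PPARA targets, 0 passed in limma (4 at an unadjusted p under 0.05). In both lines 9 were higher and 0 lower, beside 34.1% and 31.0% of all genes, and the median of 0.56 was the highest of the 12 lists. The lists were chosen with earlier results of these data known, so these counts and this ranking are a description. The 9 hepatocyte markers also had a positive median, 0.40, with 5 higher and 1 lower in both lines and 0 passing in limma (2 at an unadjusted p under 0.05), and their part in the PPARA values was not tested. CREB3L3, a liver transcription factor of fasting metabolism, stood at 9.97 with the mimic and 8.57 with the control in HEP-G2, and at 8.63 with the mimic and 7.06 with the control in Li-7 (mean 1.48, SE 0.25, adjusted p = 0.0627 by limma). CREB3L3 passed under 4 of 11 alternatives, and its Li-7 control value lay under the detection level. At least 2-fold higher were 6 of the 13 in HEP-G2, where 5.77% of all genes were, and 3 in Li-7, where 3.72% were. Of these, 2 in HEP-G2 (CPT1A and ACSL1) and 1 in Li-7 (PDK4) had both values under the detection level. PLIN2 stood at 1.20 in HEP-G2 and 1.18 in Li-7 (adjusted p = 0.0851 by limma), above the detection level on all 4 arrays. PLIN2 passed under 4 of 11 alternatives. FABP1, a fatty acid binding protein, stood at 2.80 in HEP-G2 and -0.23 in Li-7, where both values lay under the detection level.

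Of 14 Wnt/beta-catenin targets, 0 passed in limma (2 at an unadjusted p under 0.05), and the median was -0.20. In both lines 6 were lower and 1 higher, beside 31.0% and 34.1% of all genes. At least 2-fold lower were 2 in HEP-G2 and 2 in Li-7, beside 6.28% and 4.12% of all genes. At least 2-fold higher were 2 in HEP-G2 and 1 in Li-7, beside 5.77% and 3.72%. TNFRSF19 stood at -0.19 in HEP-G2 and 1.63 in Li-7, with its Li-7 control value under the detection level. AXIN2, a feedback inhibitor of the pathway, stood at -0.43 in HEP-G2 and -1.52 in Li-7, under the detection level on both Li-7 arrays, and LEF1, a DNA-binding partner of beta-catenin, at -0.99 and -0.62, under it on all 4. Of 6 thyroid hormone response genes and 6 REST targets that were tested, 0 passed in either list (0 and 1 at an unadjusted p under 0.05), with medians of 0.26 and 0.31. DIO1, the liver deiodinase, stood at 1.03 in HEP-G2 and 0.23 in Li-7, where both values lay under the detection level. SYP, a synaptic vesicle protein, stood at 1.76 in HEP-G2 and 0.14 in Li-7, and its HEP-G2 mimic value alone exceeded that level. Of 14 REST targets with a probe set, 10 lay under the detection level on all arrays.

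**Figure D4:**
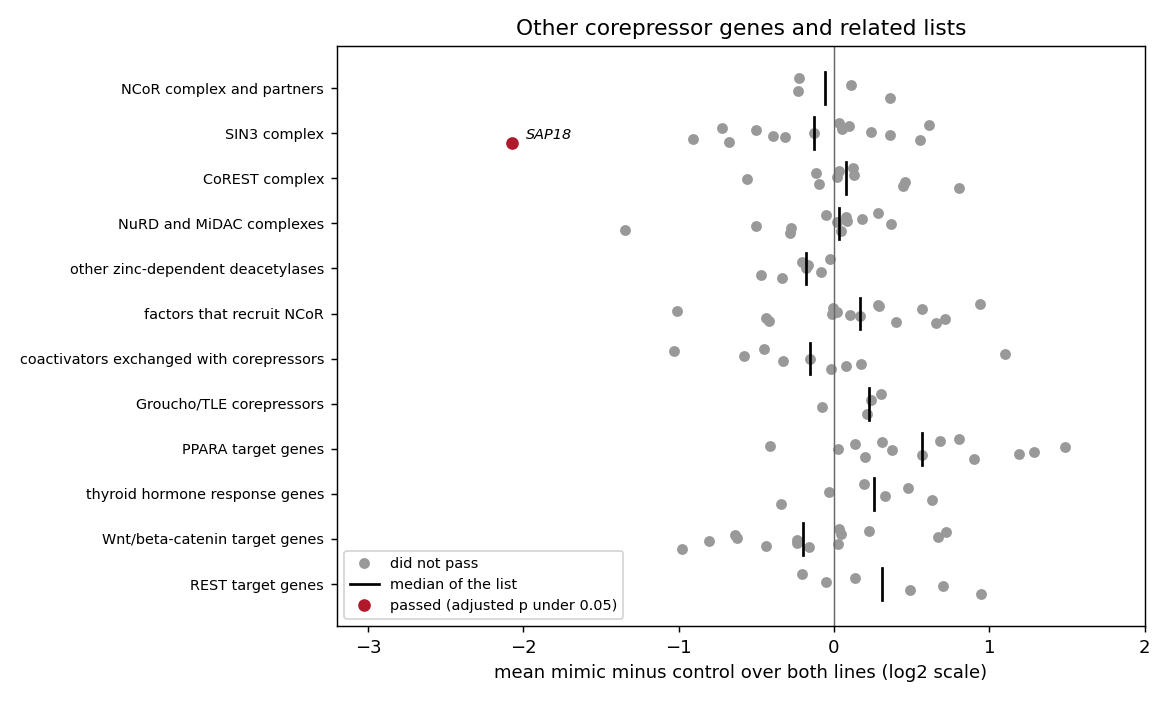
Mean mimic minus control over both lines (horizontal axis, log2 scale) for the 115 tested genes of 12 lists, with 1 point per gene, black bars at list medians and the gene that passed the limma test in red. SAP18 lies at -2.08, apart from the other members of the SIN3 list, and the PPARA targets have the highest list median (0.56).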

How the data were processed

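The authors deposited 1 table of probe-set values, read as log2. Transcriptome Analysis Console and Affymetrix Expression Console were used, per the submitters' processing notes, which give no version. The sources used here do not state the background correction, normalization or log base, so folds are on the deposited scale.

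Probe sets were named through the platform annotation, updated by Entrez identifier to RefSeq symbols (GRCh38.p14, all 17709 matched). Of 24351 probe sets, 17709 carried 1 gene name, 0 several and 6642 none. The brightest probe set stood for a gene, and genes whose mean reached the 30th percentile (4.90) were kept. Values were analysed as deposited in R 4.3.3 with limma 3.58.1 (lmFit and eBayes, cell line and treatment as terms, 5.85 prior degrees of freedom, Benjamini-Hochberg over 12381 genes, threshold 0.05). The procedure was tested on simulated data.

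The corepressor genes and the lists were chosen with earlier results of these data known. Named in the text were the 8 genes measured, list members that passed or were among up to 3 others with the largest mean change, and the 5 genes nearest to TBL1X. Cell type markers came from fixed lists, and SIN3B, ACSL1, PDK4, CPT1A and LGR5 were named after their values or filter status were seen. The number of arrays limits the precision.

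Alternatives were median centring, quantile normalization, cyclic loess, probe sets averaged per gene, no filter, 2 stricter filters, a 1.5-fold limit, robust eBayes, eBayes with an intensity trend, a model with the other factor left out, and an ordinary t statistic.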

Additional observations from a re-analysis of the deposited data

Results flagged for a closer look

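Of 45 genes looked at, 5 had responses of opposite sign in the lines. The 45 were the 8 corepressor genes and the list members with the largest mean changes over both lines. Opposite responses cancel in such a mean, so the count misses list members of this kind. LGR5, a Wnt/beta-catenin target not among the 45, stood at 1.15 in HEP-G2 and -1.47 in Li-7, above the detection level on all 4 arrays. Each line had 1 array per group, so none of these differences was tested. HDAC2 stood at -0.10 in HEP-G2 and 0.10 in Li-7, a difference of -0.21. FABP1 stood at 2.80 and -0.23 (difference 3.03), GPD2, a mitochondrial glycerol phosphate dehydrogenase, at 1.29 and -0.33 (difference 1.62), and VGF, a neuropeptide precursor, at 1.46 and -0.06 (difference 1.52), in the same order. Both values lay under the detection level for FABP1 in Li-7, for GPD2 in HEP-G2 and for VGF in both lines, so the signs there rest on values near background. TNFRSF19, a receptor of the tumour necrosis factor family, stood at -0.19 in HEP-G2 and 1.63 in Li-7, a difference of -1.82, from a control value under the detection level in Li-7.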

How the results depend on the processing

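Under 4 other scalings or probe-set summaries, TBL1X stayed between -2.89 and -2.78 in HEP-G2 and between -2.62 and -2.57 in Li-7, and its response minus that of TBL1XR1 between -3.19 and -3.14 in HEP-G2 and between -3.31 and -3.26 in Li-7. With a 1.5-fold limit, 2 genes were lower and 1 higher in Li-7. The mimic test passed 465 genes after quantile normalization (58.7% lower, against 80.8% as deposited), 23 after cyclic loess, 366 with a filter at the median gene, 582 with a filter at the negative control 95th percentile, 411 with an intensity trend, 1 with an ordinary t statistic and 0 without cell line in the model (182 at an unadjusted p under 0.05). Of the listed genes it passed 5, 0, 5, 7, 4, 0 and 0 in that order. SAP18, MTA1, PLIN2 and CREB3L3 were in each set of 4 or more. For the line difference, the negative control filter left RCOR1 untested, so 1 corepressor gene and 3687 genes passed, and the ordinary t statistic passed 0 and 1 (1 corepressor gene at an unadjusted p under 0.05). The line difference of HDAC1, -0.03 as deposited, was 0.10 after median centring and 0.014 after cyclic loess, and that of SIN3A was 0.016 after median centring. The line term of the model already sets each mimic array against the control of its own line. No paired analysis by replicate number was possible because the labels give no such numbers. Values under the detection level limit what can be said of the size of a change.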
